A study of Homo sapiens with 6 samples.

Results

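The RNA m5C machinery was examined in HEK293, an established human embryonic kidney line, as 10 named genes out of 57773 in the deposited table. The members are 8 writers, namely TRDMT1, NOP2 and NSUN2 to NSUN7, and 2 readers, ALYREF and YBX1. Each symbol matched a single gene. The study compared 3 libraries labelled TRDMT1 gene knockdown with 3 labelled control, and all 6 came from HEK293 cells with no other agent in the labels. How TRDMT1 was depleted, what the control cells carried and whether replicates were independent cultures or clones is not stated in the labels, and the p-values therefore reflect library-to-library spread that may be technical. In bulk RNA, fewer cells of a type and less RNA per cell cannot be told apart. Per the labels' protocols, ribosomal RNA was depleted and the rest treated with a bisulfite kit before a stranded total RNA library was made. The sources used here do not say whether the deposited counts came from bisulfite-treated RNA.

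5-Methylcytosine in RNA is placed by enzymes that transfer a methyl group from S-adenosylmethionine to a cytosine of a chosen RNA. TRDMT1, also called DNMT2, resembles the DNA methyltransferases in sequence but works on the anticodon loop of a few tRNAs, while the NSUN family and NOP2 divide other tRNAs, ribosomal RNAs, mitochondrial RNAs and some mRNAs among them. The mark is read in the nucleus by ALYREF, an mRNA export adaptor, and in the cytoplasm by YBX1, a cold-shock domain protein that binds and stabilises mRNA.

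The knockdown-labelled libraries held 36455950 to 40088993 counts and the control-labelled ones 24776040 to 26802182. Control replicate 2 stood apart, with a TMM scaling factor of 0.812 against 0.997 to 1.07 elsewhere and a processed-pseudogene share of 2.51%, where the other 5 libraries had 0.895% to 1.16%. Variation between replicates beyond counting error, as edgeR's coefficient, came to 5.45% for the knockdown label and 31.8% for the control label. Whether it is biological or technical is not known. All 10 markers listed for HEK293, such as PAX2, NEFM and VIM, averaged at least 1 CPM (counts scaled to the library total) in each group, with summed levels of 2670 to 2763 CPM of the library total in the knockdown-labelled libraries and 3136 to 3532 in the control-labelled ones. No listed marker of blood (0 of 4), mature kidney tubule (0 of 4) or hepatocytes (0 of 3) averaged 1 CPM, and HBB and UMOD had no count in any library, which allows at most 0.0748 to 0.121 CPM for the 3-count limit. Of 4 fibroblast markers, 2 averaged at least 1 CPM in the knockdown-labelled libraries and 3 in the control-labelled ones (sums of 39.2 to 43.4 and 10.1 to 53.3 CPM). For endothelium, 1 of 2 markers did so in each group, with sums of 3.59 to 4.44 CPM against 0.567 to 2.50 that did not overlap. The part of these lists in the results was not tested.

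Per exonic length (RPKM), the members spanned a wide range of levels. YBX1 had 624 ± 13.4 RPKM in the knockdown-labelled libraries and 731 ± 49.5 in the control-labelled ones (SD, n = 3 each), the highest level of the set. ALYREF followed at 108 ± 3.64 and 129 ± 17.2 RPKM. Among the writers, NSUN2 and NOP2 stood well above the rest, at 36.8 ± 1.02 and 25.3 ± 0.404 RPKM in the knockdown-labelled libraries. TRDMT1 was the lowest member in both groups, at 0.580 and 0.333 ± 0.0462 RPKM. This rank depends on the exonic length, 10535 bases for TRDMT1, 3414 for NSUN5 and 4728 for NSUN7. The transcripts used for sequence comparison have 3527, 2269 and 3698 bases, and the rank was not formed with these. In counts TRDMT1 exceeded NSUN5 in every library. It exceeded NSUN7 in every library except control replicate 3, with 80 against 96 counts.

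In the knockdown-labelled libraries the order by RPKM was YBX1, ALYREF, NSUN2, NOP2, NSUN6, NSUN4, NSUN3, NSUN7, NSUN5 and TRDMT1. The order of group means was the same in the control-labelled libraries. Neighbours overlapped between libraries for NSUN6 and NSUN4 and for NSUN7 and NSUN5 in the knockdown-labelled libraries, and for NSUN2 and NOP2 and for NSUN7 and NSUN5 in the control-labelled ones. All other neighbours lay apart in every library. Of the RPKM summed over the 8 writers, NSUN2 held 49.3% ± 0.192 and NOP2 33.9% ± 0.268 in the knockdown-labelled libraries, whereas TRDMT1 held 0.776% ± 0.023. In the control-labelled libraries these shares were 45.6% ± 5.27, 37.7% ± 5.60 and 0.450% ± 0.106. The order and these shares depend on the exonic lengths used for RPKM.

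**Figure D1:**
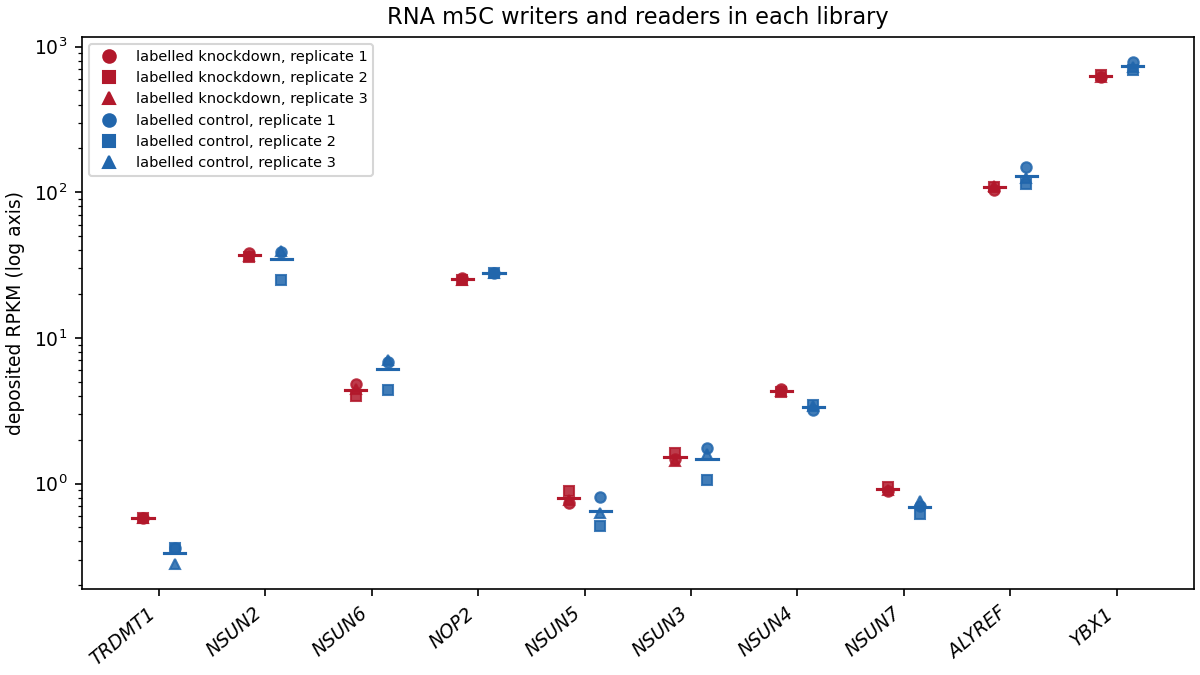
Deposited RPKM of each member (log axis) in the 3 knockdown-labelled libraries (red) and the 3 labelled control (blue), with replicates as circle, square and triangle and group means as bars. TRDMT1 is the lowest member in both groups on this scale, which depends on exonic length. Control replicate 2 lies below the other control libraries for NSUN2 (25.1 RPKM) and NSUN6 (4.39 RPKM).

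TRDMT1 (ENSG00000107614, chromosome 10), the targeted gene, was not lower in the knockdown-labelled libraries. Its counts were 221, 225 and 245 under the knockdown label and 99, 93 and 80 under the control label, which is 0.58, 0.58 and 0.58 against 0.36, 0.36 and 0.28 RPKM. Every knockdown-labelled library exceeded every control-labelled one, and the 95% Wilson interval of the lowest of the former (5.31 to 6.92 CPM of the library total) did not reach that of the highest of the latter (3.06 to 4.60). These intervals cover counting error only. The fitted log2 fold change, labelled knockdown minus labelled control, was 0.61 ± 0.21 (SE; 95% interval 0.13 to 1.10), and edgeR's quasi-likelihood test gave an adjusted p of 0.0705, above the threshold of 0.05. On log2(RPKM + 1), an exact permutation test (two-sided) returned p = 0.1, the minimum for 3 against 3. Leaving out control replicate 2 brought TRDMT1 past the threshold (0.79, adjusted p = 0.00249, edgeR), as did DESeq2 (0.65, adjusted p = 0.0245), and adjusted p ran from 0.000274 to 0.202 over 22 alternatives. TRDMT1 therefore goes against the label, and each direction given here is one between libraries as labelled. The column names in the deposited table differ from the sample titles, with the letter C for titles in TKD and TK for titles in SEQ. What these letters stand for is not stated in the sources used here, and an exchange of labels was not tested.

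A ratio to another gene within a library does not depend on how libraries are scaled. Per 100 NSUN2 counts there were 2.90, 3.08 and 3.06 TRDMT1 counts in the knockdown-labelled libraries and 1.74, 2.72 and 1.36 in the control-labelled ones. The groups did not overlap, although control replicate 2 came close to the knockdown-labelled libraries. The mean log2 ratio was higher by 0.69 in the knockdown-labelled libraries (exact two-sided permutation p = 0.1, the smallest possible), by 0.96 without control replicate 2 and by 0.47 without control replicate 3.

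The same ratio was formed with all 9 other members, which share the TRDMT1 counts, and the groups lay apart for 8 of them, the exception being NSUN5. TRDMT1 alone already lay apart between the groups, and the ratio was not formed with all genes. The 8 are therefore no result about the partner genes. Folds of these ratios were taken from means of log2 ratios. The difference was widest against NSUN6, 2.38-fold, with arithmetic means of 60.3 ± 6.36 TRDMT1 counts per 100 NSUN6 counts in the knockdown-labelled libraries and 26.4 ± 9.63 in the control-labelled ones (SD, n = 3). It was 2.09-fold against ALYREF, 2.05-fold against YBX1 and 1.94-fold against NOP2. The narrowest differences were 1.35-fold against NSUN4 and 1.34-fold against NSUN7.

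**Figure D2:**
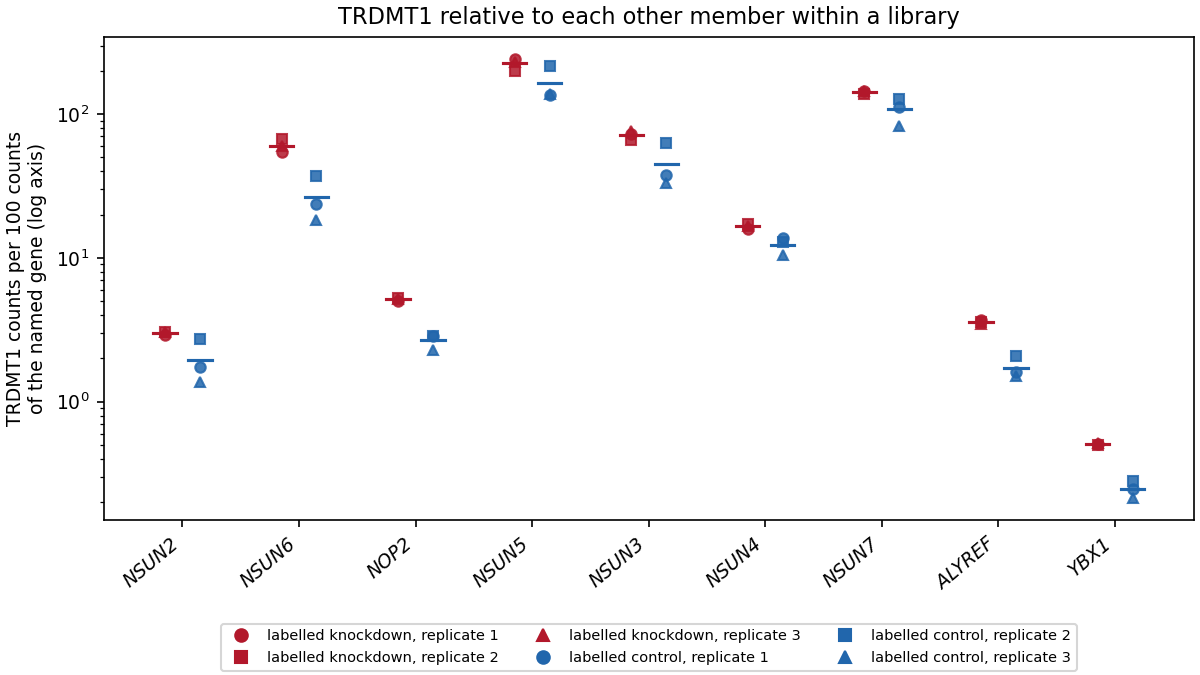
TRDMT1 counts per 100 counts of each other member (log axis) in each library, red for labelled knockdown and blue for labelled control, with bars at group means. The knockdown-labelled libraries lie above the control-labelled ones for every member except NSUN5, where they overlap.

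Among 11758 other genes with a mean of at least 5 CPM, the 3 whose log2 CPM followed TRDMT1 most closely over the 6 libraries were POLR2C, a subunit of RNA polymerase II (Pearson's r = 0.9997), VEGFA, an angiogenic growth factor (0.9976), and PARVB, a focal adhesion protein (0.9968). This is a description over 6 libraries that share the same split by label, and 201 genes reached at least 0.95.

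Of the 10 members, all tested, 0 were called higher and 2 lower at an adjusted p under 0.05, against 9.29% and 14.7% of the 17805 genes tested, or 24% in either direction. The median log2 fold change of the members was −0.091, beside −0.041 over all genes tested, and with the plain library total these medians were 0.065 and 0.13, with 1888 genes called higher and 1649 lower in place of 1654 and 2613. The called members were NSUN6 and ALYREF. With deposited RPKM the groups did not overlap for 6 of the 10 members (TRDMT1, NSUN4, NSUN7, NOP2, ALYREF and YBX1), where 50.5% of all genes tested did not. After TMM scaling the groups lay apart for 6 members too, with NSUN6 in place of NSUN4, against 49.9% of all genes tested. Without control replicate 2, 6 members were called, 2 higher and 4 lower, while 48.5% of all genes tested were called. Leaving out control replicate 3 left 1 member called, with 29.2% of all genes called. Leaving out control replicate 1 left 0 members, with 11% of all genes called, and leaving out each knockdown-labelled library in turn left 0, with 6.67% to 7.37%. Calls over all genes thus fell from 24% in these fits, and a call that ended in them is not particular to its gene. At unadjusted p under 0.05, edgeR had 3 members without control replicate 1, where 6054 of all 18642 genes tested passed. It had 2 members without any 1 knockdown-labelled library, where 4871 to 5055 of 17832 to 17846 genes tested passed.

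NSUN2 and NSUN6, like TRDMT1, act on tRNAs outside mitochondria. NSUN2, which methylates many tRNAs and a wide range of mRNAs, had 37.99, 36.15 and 36.30 RPKM in the knockdown-labelled libraries and 38.99, 25.11 and 39.72 in the control-labelled ones. The knockdown-labelled libraries lay between control replicate 2 and the other control libraries. NSUN2 differed by −0.066 ± 0.13 on the log2 scale (95% interval −0.38 to 0.25; adjusted p = 0.742, edgeR), so that a change of up to about 23.1% down or 18.7% up lies within the interval.

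NSUN6, which methylates the acceptor end of particular tRNAs and sites in mRNAs, had 4.84, 3.97 and 4.45 RPKM in the knockdown-labelled libraries and 6.87, 4.39 and 7.04 in the control-labelled ones. On this scale control replicate 2 fell among the knockdown-labelled libraries. After TMM scaling the values were 10.5, 8.61 and 9.61 against 15.9, 12.5 and 15.8 CPM, and the groups no longer overlapped. NSUN6 fell by 0.62 ± 0.16 on the log2 scale (adjusted p = 0.0331, edgeR), 1.54-fold. The call was kept without control replicate 2 (−0.72, adjusted p = 0.000766) and ended without each of the other 5 libraries in turn, with adjusted p between 0.0569 without control replicate 3 and 0.15 without knockdown replicate 2. Among other settings it ended with the plain library total (−0.47, adjusted p = 0.164), and adjusted p ran from 0.000117 to 0.866 over 22 alternatives. NSUN6 shares a strand with an overlapping gene, AL450384.2, which had 52, 56 and 67 counts against 78, 156 and 114, the most in control replicate 2, and reads in the overlap are uncertain.

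Fold changes moved with the base composition of the transcripts. Across 13896 tested protein-coding genes, the log2 fold change correlated with the A content of the longest transcript at r = −0.435, given as a description, since genes of a library share its depth and composition bias. The median log2 fold change went from 0.26 in the lowest decile of A content to −0.88 in the highest. NSUN6, with 30.99% A, and TRDMT1, with 30.84%, both belong to the ninth decile, whose median was −0.38, and they lay on opposite sides of it at −0.62 and 0.61. Once composition and length trends were removed per library, NSUN6 stood at 0.052 (adjusted p = 0.866, edgeR) and TRDMT1 at 0.93 (adjusted p = 0.0614). NSUN6 and TRDMT1 both lie on chromosome 10, whose other 551 tested protein-coding genes had a median of −0.077.

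**Figure D3:**
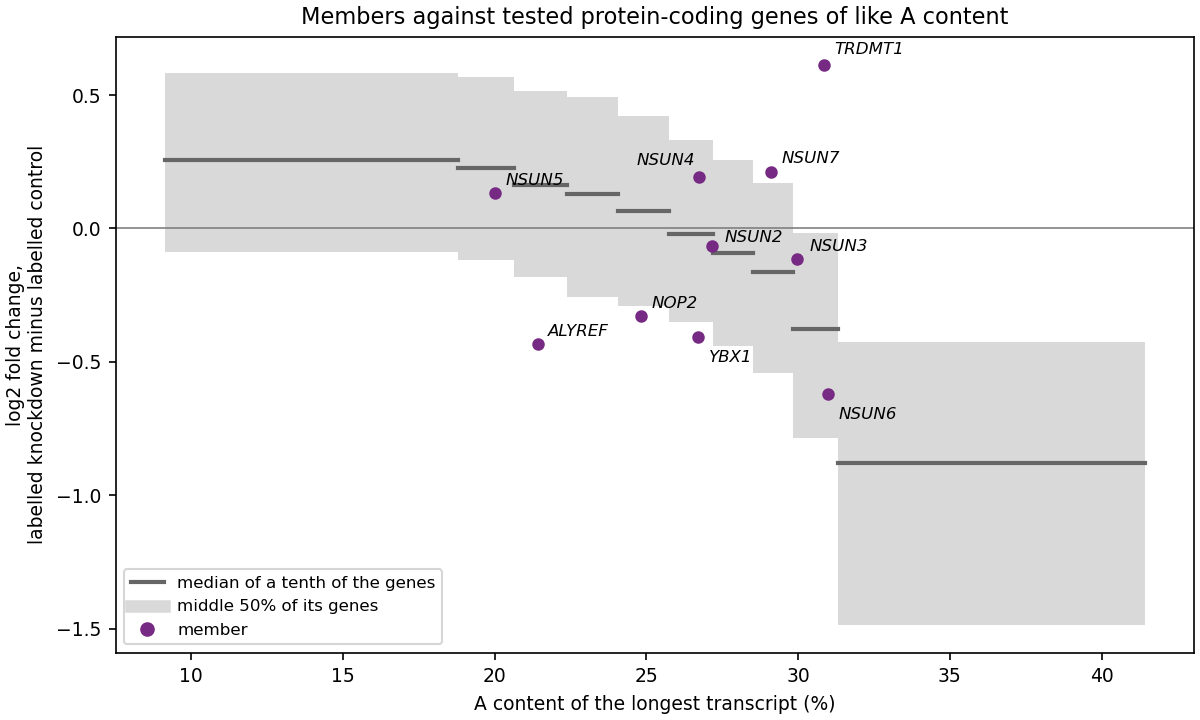
Log2 fold change (labelled knockdown minus labelled control) against the A content of the longest transcript. Grey lines and bands give the median and the middle 50% of each decile of 13896 tested protein-coding genes, and purple points are the 10 members. TRDMT1 and NSUN6 have nearly the same A content and lie at 0.61 and −0.62.

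NOP2 and NSUN5 methylate the RNA of the large ribosomal subunit. NOP2, a nucleolar protein also needed for assembly of that subunit, had 25.73, 24.99 and 25.08 RPKM in the knockdown-labelled libraries and 27.96, 28.02 and 27.76 in the control-labelled ones. Its groups did not overlap. After TMM scaling they also lay apart, at 113.9, 110.2 and 110.2 against 131.6, 161.9 and 126.8 CPM, and control replicate 2 was then the highest library. In GENCODE 29 a gene on the same strand, AC006064.6, holds 83.3% of the 50-base stretches of the NOP2 transcript. AC006064.6 has no row in the deposited table. The fitted difference was −0.33 ± 0.13 (95% interval −0.64 to −0.023; adjusted p = 0.107, edgeR) and was not called. NOP2 was the 1 member called with composition and length trends removed (−0.50, adjusted p = 0.0346), where 20.2% of all genes tested were called, and it was called without control replicate 2 (−0.21, adjusted p = 0.0315).

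NSUN5 had 0.73, 0.89 and 0.77 RPKM in the knockdown-labelled libraries and 0.81, 0.51 and 0.63 in the control-labelled ones, with overlapping groups and a difference of 0.13 ± 0.21 (adjusted p = 0.666, edgeR). These counts are uncertain because NSUN5 on chromosome 7 has a pair of near copies on the same chromosome, the pseudogenes NSUN5P1 and NSUN5P2. Over the part of the NSUN5 coding sequence that aligned (66.9% and 67.3% of 1173 bases), they matched it at 96.2% and 96.6% of bases. A stretch of 120 coding bases, picked where both copies align to it without a gap, shows how alike they can be. It does not stand for the rest of the transcript. It is given from GENCODE 29 (GRCh38) transcripts on their own strand, 5′ to 3′, starting at coding base 604 of NSUN5, with bases that differ from NSUN5 in capitals.
NSUN5: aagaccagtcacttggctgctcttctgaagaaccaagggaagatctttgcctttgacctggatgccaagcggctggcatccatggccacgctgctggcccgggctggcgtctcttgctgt
NSUN5P1: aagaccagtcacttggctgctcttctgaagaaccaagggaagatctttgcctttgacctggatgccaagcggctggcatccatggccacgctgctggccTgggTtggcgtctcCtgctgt
NSUN5P2: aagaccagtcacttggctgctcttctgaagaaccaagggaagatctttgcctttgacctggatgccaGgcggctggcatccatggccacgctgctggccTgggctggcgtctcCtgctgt
Each copy differs from NSUN5 at 3 of these 120 bases. A stretch of 50 bases of the NSUN5 transcript occurred unchanged in transcripts of another gene for 43.0% of all start positions, and one of 100 bases for 21.3%. The 50-base stretches recurred in NSUN5P2 for 35.2% of positions, in POM121, a nuclear pore gene, for 27.3% and in NSUN5P1 for 18.1%. The sources used here give no read length. All these comparisons use sequence without bisulfite conversion, and its effect on them was not tested.

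Most counts of this family were assigned to a pseudogene. NSUN5P1 had 341, 384 and 372 counts in the knockdown-labelled libraries and 259, 395 and 274 in the control-labelled ones, against 91, 112 and 106 and 73, 43 and 58 for NSUN5 itself. Control replicate 2 had the most NSUN5P1 counts and the fewest NSUN5 counts of all 6 libraries, although it was the shallowest. NSUN5 made up 8.90% of the counts of the 3 genes there, against 15.5% to 20.2% in the other 5 libraries. With NSUN5 summed with its copies, a choice made after the data were seen, the difference was −0.38 ± 0.24 (adjusted p = 0.272, edgeR), the reverse of the sign for NSUN5 alone, and neither passed the threshold.

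**Figure D4:**
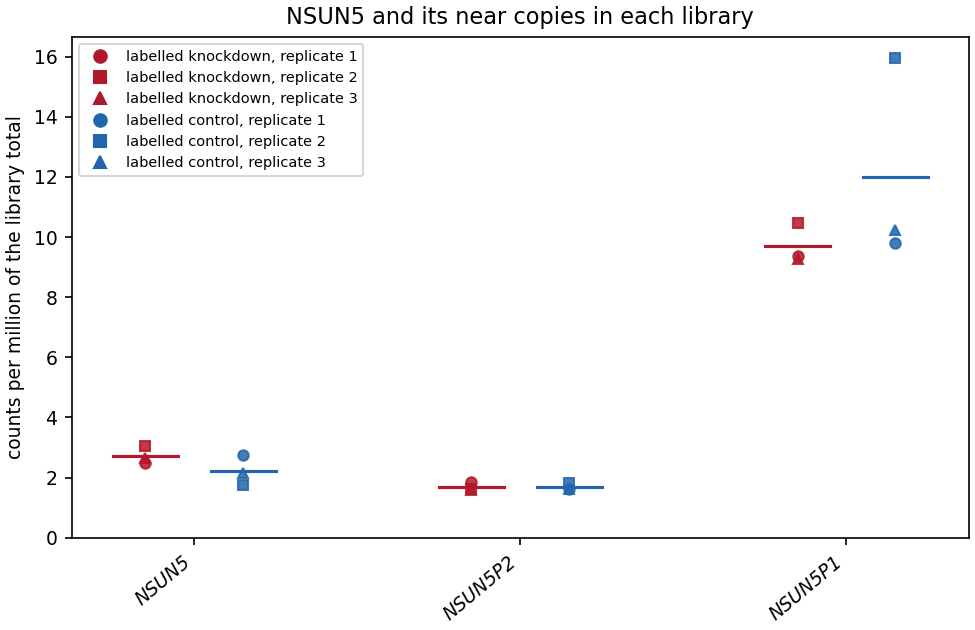
CPM of the library total for NSUN5 and its near copies NSUN5P2 and NSUN5P1 in each library, red for labelled knockdown and blue for labelled control, with bars at group means. NSUN5P1 is the highest in every library, and control replicate 2 stands out at 15.9 CPM.

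NSUN3 and NSUN4 act inside mitochondria. NSUN3, the methyltransferase of mitochondrial methionine tRNA, had 1.47, 1.63 and 1.43 RPKM in the knockdown-labelled libraries and 1.76, 1.05 and 1.59 in the control-labelled ones, with the groups overlapping (−0.12 ± 0.17; 95% interval −0.51 to 0.28; adjusted p = 0.644, edgeR). NSUN3 overlaps DHFR2, named DHFRL1 in the table, on the opposite strand, and 5.59% of its stretches of 50 bases recur elsewhere, 5.37% in DHFR2. No source used here gives the strand setting, and without strand the reads of these genes cannot be told apart. DHFRL1 had 267, 208 and 247 counts against 219, 53 and 200, and was lowest in control replicate 2, as NSUN3 was.

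NSUN4, which methylates the small-subunit ribosomal RNA of mitochondria and has MTERF4 as a partner protein, had 4.47, 4.23 and 4.34 RPKM in the knockdown-labelled libraries and 3.21, 3.44 and 3.38 in the control-labelled ones. The groups lay apart in RPKM but overlapped after TMM scaling. The fitted difference was 0.19 ± 0.15 (95% interval −0.15 to 0.53; adjusted p = 0.364, edgeR), and NSUN4 was called without control replicate 2 (0.33, adjusted p = 0.00875).

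NSUN7, a family member known from sperm motility, had 0.89, 0.94 and 0.90 RPKM in the knockdown-labelled libraries and 0.70, 0.62 and 0.76 in the control-labelled ones. All 3 of the former exceeded all 3 of the latter on both scales. The difference of 0.21 ± 0.16 (95% interval −0.17 to 0.59) was not called (adjusted p = 0.363, edgeR), with 73 to 170 counts in a library.

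The readers were the members with the highest levels. ALYREF, which binds m5C in mRNA in the nucleus and hands the mRNA to the export receptor, had 103.91, 108.97 and 110.98 RPKM in the knockdown-labelled libraries and 147.89, 114.09 and 125.62 in the control-labelled ones. The groups did not overlap, with control replicate 2 the nearest to the knockdown-labelled libraries. ALYREF fell by 0.43 ± 0.12 on the log2 scale (adjusted p = 0.0414, edgeR), 1.35-fold. The call was kept without control replicate 2 (adjusted p = 0.00576) or control replicate 3 (0.0204), and ended without control replicate 1 (0.14) and without each knockdown-labelled library in turn (0.155 to 0.177). In the latter fits the log2 fold change itself stayed between −0.45 and −0.40. Other settings that ended it include DESeq2 size factors (0.0537), upper-quartile scaling (0.0622), the plain library total (0.221) and composition and length trends removed (−0.36, adjusted p = 0.139), and adjusted p ran from 0.000123 to 0.221 over 22 alternatives. ALYREF overlaps ANAPC11, a subunit of the anaphase-promoting complex, on the opposite strand, which had 2664 to 3884 counts in a library, so the counts of ALYREF are uncertain as far as the counting ignored strand.

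YBX1 had 615.99, 639.60 and 616.71 RPKM in the knockdown-labelled libraries and 785.03, 687.82 and 720.30 in the control-labelled ones, with no overlap. Its difference of −0.41 ± 0.17 (95% interval −0.80 to −0.012) was not called (adjusted p = 0.119, edgeR), while DESeq2 (−0.37, adjusted p = 0.0263) and the fit without control replicate 2 (−0.34, adjusted p = 0.00788) called it. YBX1 has 10 rows named as its pseudogenes, of which 5 had no count. Together they held 2.03 to 2.19 counts per 100 YBX1 counts in all 6 libraries, control replicate 2 included, and summing them with YBX1 left the difference at −0.41 (adjusted p = 0.119).

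**Figure D5:**
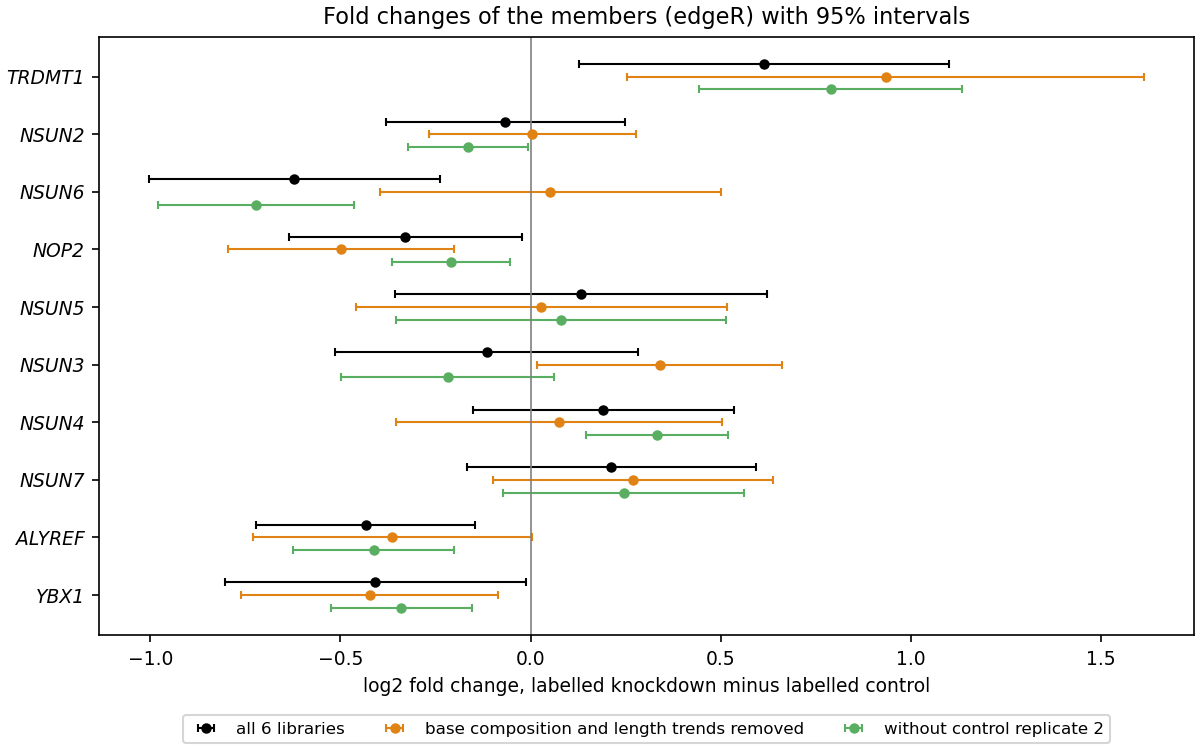
Log2 fold changes of the 10 members, labelled knockdown minus labelled control, with 95% intervals from edgeR, for all 6 libraries (black), with base composition and length trends removed (orange) and without control replicate 2 (green). NSUN6 moves from −0.62 to 0.052 when the trends are removed, while TRDMT1 stays above 0 in all 3 fits.

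Other genes of the pathway were taken as 14 oxidases, proposed readers and partner enzymes, of which 13 were tested. Of these 0 were called higher and 2 lower (15.4%, where 14.7% of all genes were called lower), with a median of −0.29. The split moved with the scaling. With the plain library total the median was −0.082, and 1 gene was called higher and 0 lower. DESeq2 called 2 higher and 2 lower. The genes called higher were YBX2, a relative of YBX1 (0.76, adjusted p = 0.0217 with the plain total in edgeR, and 0.60, adjusted p = 0.0298 with DESeq2), and with DESeq2 also the oxidase TET3 (0.87, adjusted p = 0.0434). TET2, an oxidase of 5-methylcytosine, stood at 10.6, 10.4 and 9.31 CPM after TMM scaling in the knockdown-labelled libraries and 16.6, 16.9 and 22.8 in the control-labelled ones (−0.90 ± 0.17, adjusted p = 0.0119, edgeR), and its call ended without any 1 knockdown-labelled library (0.0615 to 0.0747) and with the plain library total (0.055) or limma-trend on log2(RPKM + 1) (0.0802) or log2(RPKM + 0.1) (0.091). ALKBH1, which oxidises the m5C that NSUN3 places in mitochondrial methionine tRNA, stood at 14.4, 13.7 and 13.1 against 21.6, 17.6 and 19.5 CPM (−0.51 ± 0.14, adjusted p = 0.0355). Its call ended without control replicate 1 (0.134), without each knockdown-labelled library in turn (0.119 to 0.166) and, among other settings, with the trends removed (−0.41, adjusted p = 0.0917). Not called were the NSUN4 partner MTERF4, named MTERFD2 in the table (−0.39 ± 0.18, adjusted p = 0.157), and QTRT1 and QTRT2, whose product queuosine is known to raise the activity of TRDMT1 on tRNA (−0.29, adjusted p = 0.365, and −0.30, adjusted p = 0.331). FMR1, a proposed reader, was not tested, with 0, 0 and 6 counts against 3, 1 and 0. Whether so few counts reflect its level or how reads were assigned to it could not be settled from the table.

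Of 16 mRNA export partners of ALYREF, 15 were tested, with 1 called higher, 5 lower and a median of −0.30. These are 6.67% and 33.3% of the tested partners, where 9.29% and 14.7% of all genes were called. The list was chosen with earlier results of these data known, so these shares are a description and no test. With the plain library total 1 partner was called higher and 3 lower (6.67% and 20%, against 10.6% and 9.26% of all genes). With composition and length trends removed 0 were called higher and 4 lower (26.7%, against 11.1% of all genes called lower). The lower genes included 3 subunits of the THO complex, which loads export factors on nascent mRNA. THOC2 stood at 24.2, 26.1 and 24.1 CPM after TMM scaling in the knockdown-labelled libraries and 132.2, 164.4 and 150.4 in the control-labelled ones (−2.59 ± 0.13, adjusted p = 0.000173, edgeR), 6.01-fold lower. THOC1 (−1.95 ± 0.23, adjusted p = 0.00226) and THOC7 (−1.40 ± 0.15, adjusted p = 0.00161) were lower too, and all 3 were still called without any 1 library. THOC2, THOC1 and THOC7 have 34.75%, 36.98% and 32.93% A, within the highest decile of A content, whose median was −0.88. With the trends removed THOC2 stood at −1.64 (adjusted p = 0.00428), THOC7 at −0.59 (0.0128) and THOC1 at −0.91 (0.0786), where its call ended.

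The other THO subunits tested, THOC3 (−0.29, adjusted p = 0.161), THOC5 (−0.14, adjusted p = 0.411) and THOC6 (0.51, adjusted p = 0.227), were not called by edgeR. The RNA helicase DDX39A, which works with ALYREF in export, was lower (−0.59 ± 0.12, adjusted p = 0.0145, edgeR), with a call that ended without control replicate 1 (0.0609), without each knockdown-labelled library in turn (0.0845 to 0.0893) and with the plain library total (0.0628). Its close relative DDX39B was also called lower (−1.20, adjusted p = 0.0437), but at 0.285 ± 0.0761 against 0.666 ± 0.156 CPM (SD, n = 3) and with a call that ended without any 1 library (0.0516 to 0.176). DDX39B lies in the major histocompatibility complex, of which the assembly can hold near-identical alternate copies. Whether this affected its counts was not tested, and its level is uncertain. The export receptor NXF1, to which ALYREF hands mRNA, was the gene called higher, at 114.3, 108.5 and 108.9 against 78.9, 73.9 and 80.9 CPM (0.51 ± 0.11, adjusted p = 0.016). That call ended without control replicate 1 (0.0532), without each knockdown-labelled library in turn (0.0848 to 0.0909), with the replicate block (0.0608), with the trends removed (0.24, adjusted p = 0.103) and with both (0.239). Without control replicate 2, 19 of the 28 tested genes of both lists were called (67.9%, against 48.5% of all genes), and leaving out another library gave 3 to 10 (10.7% to 35.7%, against 6.67% to 29.2% of all genes).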

How the data were processed

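RNA sequencing of HEK293 cells was deposited as 1 table of 57773 genes with 6 libraries. It holds the authors' raw read counts for each gene and, in further columns, the authors' RPKM. Recomputing RPKM from counts, exonic length and column sums gave the deposited value within 0.006 in 100% of cases. The submitters' processing notes name the build hg19 and, without roles, edgeR 3.4.6, DESeq 1.18.0, DESeq2 1.6.3, StringTie 1, HTSeq 0.6.1 and bcl2fastq 2.17.1.14. Aligner, strand setting and annotation are not given in the sources used here. Columns were tied to samples by the second name in each description. No 2 libraries agreed within sampling noise.

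Counts were tested over all genes with edgeR 4.0.16 in R 4.3.3 (quasi-likelihood F test, TMM, filterByExpr, robust estimation, both groups sharing 1 estimate of the spread), with Benjamini-Hochberg adjustment over 17805 genes and a threshold of 0.05. Intervals are 95%. Alternatives were DESeq2 1.42.0, limma 3.58.1 (limma-trend on log2 RPKM and voom), other scalings and filters, a replicate block, smooth composition and length terms (mgcv 1.9.3) as offsets, and leaving out each library. Base composition was that of the longest GENCODE 29 transcript, matched by identifier for 97.2% of tested genes, and the rest got no correction. That annotation is of another build than hg19, so no coordinates are given. The edgeR fit was tested on simulated data in which both groups had the same spread, so its behaviour under the unequal spread of these groups was not tested.

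The members and lists were chosen with earlier results of these data known. Named genes are the 10 members, each list gene with an adjusted p under 0.05, the 3 genes closest to TRDMT1 in log2 CPM (prior count 2), and near copies, by symbol. Overlapping genes were read from GENCODE 29, since the deposited table was used without coordinates. Other list genes were named after their values were seen.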

Additional observations from a re-analysis of the deposited data

How the results depend on the processing

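The fits cover counting error and the spread of 3 libraries a group, and the calls near the threshold moved with many choices. Replicate numbers were not taken to pair the libraries, and same-numbered libraries deviated from their group means with correlations of −0.04, 0.057 and 0.001. With 3 libraries a group, such correlations cannot exclude a pairing.

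The log2 fold change of TRDMT1 was above 0 under all alternatives run. It passed the threshold with DESeq2 (0.65), the plain library total (0.80), limma-trend on log2(RPKM + 1) (0.25) and on log2(RPKM + 0.1) (0.66), voom with quality weights (0.66), and trends removed without control replicate 2 (1.28, chosen after the data were seen), and it ran from 0.45 to 0.79 when 1 library was left out. The log2 difference of the TRDMT1 to NSUN2 ratio, 0.69 as reported, ran from 0.47 to 0.96 when 1 library was left out. It was 1.25 with the median count of the other 7 writers as partner. That median was the NSUN6 count in every library except knockdown replicate 2, where it was the NSUN3 count. The value therefore repeats the NSUN6 ratio, which gave 1.25 too and was the widest, and is no separate check over several writers.

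The number of members called, 2 as fitted with 24% of all genes called, was 4 with DESeq2 (16.4% of all genes), 6 with voom (57.4%; control replicate 2 had a weight of 0.077) and 6 with trends removed without control replicate 2 (47%). It was 1 with DESeq2 size factors (23.9%), the plain total (19.9%), the upper quartile (24.2%), limma-trend on log2(RPKM + 1) (22.5%) and log2(RPKM + 0.1) (21.1%), and trends removed (20.2%). In edgeR, no filter (11.7%) and the length trend removed (28.6%) gave 0, with unadjusted p under 0.05 for 3 and 2 members. Over all genes tested, 8126 of 33528 and 7512 of 17805 had unadjusted p under 0.05 in these fits. The replicate block gave 0 members called, 5 list genes and 2976 genes in all (16.7%), and the block with trends removed 0, 4 and 1947 (10.9%). Unadjusted p was under 0.05 for 3 and 2 members with these blocks (edgeR), and for 6318 and 5685 of all 17805 genes tested. DESeq2 and no filter were run over 33528 genes, not the 17805 of the fit as reported, so their shares of all genes are not comparable with the others. Genes to which DESeq2 gave no adjusted p were counted as not called, which lowers its 16.4%. Leaving out 1 library gave 0 to 6 members, 3 to 19 list genes and 1191 to 9063 genes in all. List genes called, 8 as fitted, were 5 with the plain total, 21 with voom, 5 with trends removed and 16 with trends removed without control replicate 2. Genes called in all, 4267 as fitted, were 10217 with voom and 8795 with trends removed without control replicate 2. The plain total moved the median of all genes from −0.041 to 0.13, and calls split into 1888 higher and 1649 lower instead of 1654 and 2613, and limma-trend on log2(RPKM + 1) into 2413 and 1599 and on log2(RPKM + 0.1) into 2154 and 1601.

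Signs reversed for 4 members, none of them called in that fit except NSUN3 with trends removed without control replicate 2 (0.31, adjusted p = 0.0444, edgeR). NSUN2 stood at 0.089 with the plain total, 0.0053 with no filter, 0.12 on either limma-trend scale, 0.0046 with trends removed, 0.011 with the block and trends removed, and from −0.16 to 0.027 when 1 library was left out (above 0 without control replicate 1). NSUN3 stood at 0.041 with the plain total, 0.036 and 0.067 with limma-trend, 0.34 with trends removed, 0.34 with the block and trends removed, and from −0.22 to 0.031 when 1 library was left out (above 0 without control replicate 1). NSUN5 stood at −0.017 with voom, −0.080 with trends removed without control replicate 2 and −0.38 summed with its copies. NSUN6 stood at 0.052 with trends removed and 0.066 with the block and trends removed. Beyond these, the cause was not tested.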
